A study of Mus musculus with 4 samples.

Results

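The 40 genes described here make up the type I interferon response and the RNA-sensing machinery of the cell: interferon receptors, cytosolic RNA sensors, interferon regulatory factors and interferon-stimulated antiviral effectors. They were chosen by symbol from a list of 40 drawn up with earlier results of these data known. All 40 were found among the 27179 genes of the deposited count table. The study profiled RNA from regulatory T cells (Treg cells, CD4+Foxp3+ T cells that restrain immune responses) with RelA/p65, a transcription-activating subunit of NF-κB, present (WT) or deficient (P65KO). In both groups the mice were C57BL/6, were at steady state and gave cells from the spleen together with peripheral lymph nodes; each group has 2 libraries. For the driver of the deletion, the kind of allele, the age of the mice and any pooling of animals, the sources used here give nothing. Because nothing states that the 2 libraries of a group came from separate mice, p-values measure only the spread between these libraries.

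Type I interferons bind IFNAR1 and IFNAR2, which act through the kinases JAK1 and TYK2 to assemble a transcription factor complex that binds DNA through IRF9. That complex binds the interferon-stimulated response element (ISRE) in the promoters of interferon-stimulated genes. Upstream of interferon, RIG-I (Ddx58) and MDA5 (Ifih1) recognise foreign double-stranded RNA in the cytosol and signal through MAVS to IRF3, IRF7 and NF-κB. Many of the genes in the response encode sensors and transcription factors of the same pathway, so that the response feeds back on itself, and resting lymphocytes carry a low tonic level of it.

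Of the 40 genes, 37 passed the filter on low counts, and 12 of these differed between the groups at an adjusted p below 0.05 (edgeR quasi-likelihood test, Benjamini-Hochberg over all 11172 genes tested). The share was 32.4% of the 37, beside 20.7% of all genes tested. In P65KO Treg cells 10 of the 37 fell, or 27.0%, where the share of all genes that fell was 11.7%. The 2 that rose, Ifngr2 and Ifit2, were 5.41% of the 37, beside 9.0% of all genes. The median log2 difference, P65KO minus WT, was -0.20 over the 37 and 0.00 over all genes tested. Most differences were small: the median absolute log2 difference was 0.27 in these genes and 0.22 over all genes, and only Oas1a and Rsad2 among the 12 differed by more than 1 on the log2 scale. The plot of log2 differences by role shows the lower values in the double-stranded RNA effectors and the antiviral effectors, and values near 0 in the interferon regulatory factors. With DESeq2 in place of edgeR, the share of the list called was below that of all genes. With no filter on low counts, the shares of the list and of all genes were near each other. In each fit with 1 library left out, the share of the list called was near or below that of all genes.

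**Figure D1:**
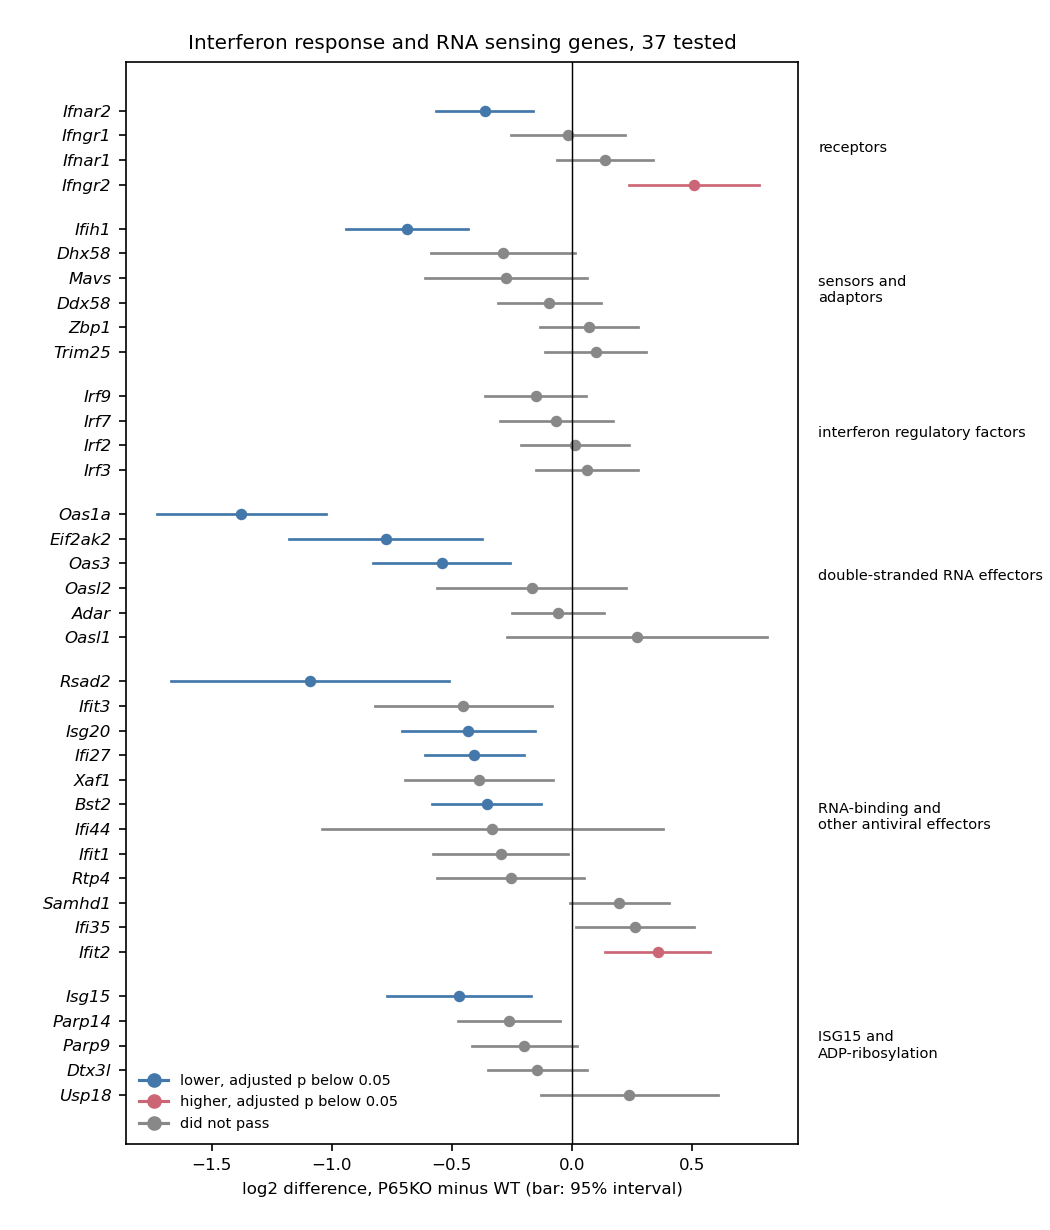
Fitted log2 difference (P65KO minus WT, x axis) of each of the 37 tested genes (y axis), grouped by role; bars are 95% intervals and colour marks genes called lower, called higher or not past the threshold. 10 genes were lower, led by Oas1a at -1.38, and 2 were higher, Ifngr2 at 0.51 and Ifit2 at 0.36.

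The libraries were alike in depth, with 4513863 to 4624230 counts assigned to genes. Cd3e, Cd4 and Foxp3, defining genes of Treg cells, had at least 3275, 4371 and 1724 counts in every library. Of the full list of 7 Treg markers, Ikzf2 and Ctla4 fell 3.14-fold and 1.89-fold, Il2ra rose 1.34-fold and 4 did not pass; their sum was 4718 and 4734 CPM in WT and 4035 and 4393 CPM in P65KO. The Rela row held 875 and 806 counts in WT against 820 and 909 in P65KO; it covers the whole gene, and so does not check a deletion of part of it. Xist had 494 and 608 counts in WT against 0 and 2 in P65KO, while Ddx3y had 0 and 0 against 302 and 404. The genotype labels and this sex-linked difference cannot be told apart, and this holds for every comparison here. A list of 16 myeloid and dendritic cell markers summed to 164 and 238 CPM (counts scaled to library size) in WT and 1211 and 431 CPM in P65KO; 13 were tested, 10 rose and 0 fell, Lyz2 going from 419 and 655 counts to 2880 and 872. Erythroid markers (5 in the table) summed to 21.3 and 27.8 CPM in WT and 105 and 192 CPM in P65KO. A list of 9 plasmacytoid dendritic cell markers (without Bst2) summed to 113 and 101 CPM in WT and 78.7 and 65.3 CPM in P65KO, with Siglech at 0, 1, 0 and 0 counts and Klk1 at 0 throughout. Of these 5 were tested: Ccr9 and Runx2 fell 2.20-fold and 3.79-fold, and Bcl11a rose from 1 and 1 to 26 and 16 counts. The 7 B cell markers summed to 50.4 and 53.4 CPM in WT and 24.9 and 15.3 CPM in P65KO, with Pax5 at 0. The part of these cells in the results below was not tested, and in these bulk samples fewer cells of a type and less RNA per cell cannot be told apart.

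Because the ISRE is the element through which the interferon-activated complex acts, the 250 bases before the RefSeq start of each gene were searched for its core, GAAANNGAA, on both strands. A window was found for 30 of the 40 genes, and 11 of these 30 (36.7%) held a core, beside 8.18% of the 27025 genes with a window and 7.55% of the 8624 tested genes with a window. The core was present in 6 of 9 windows of genes that fell, 0 of 2 of genes that rose and 5 of 19 of genes that did not pass (Adar, Ifit1, Ifit3, Irf2 and Trim25). The list holds interferon-stimulated genes by choice, so a share above that of all genes was built into it. The split by call mixes such genes with receptor chains, adaptors and regulatory factors, and was not tested. The 6 windows of genes that fell are printed 5′ to 3′ on the strand of the gene (GRCm38.p6, RefSeq), ending at the base before the start. These 6 were picked because they hold the core, and capitals mark the core or its reverse complement. Of the other called genes, Eif2ak2, Ifnar2, Isg20, Ifit2 and Ifngr2 had a window without a core, and Ifi27 had no window. Oas1a lies at chr5:120907526-120907775, Ifih1 at chr2:62646256-62646505, Oas3 at chr5:120777660-120777909, Rsad2 at chr12:26456453-26456702, Isg15 at chr4:156200819-156201068 and Bst2 at chr8:71537473-71537722, all on the minus strand.
Oas1a: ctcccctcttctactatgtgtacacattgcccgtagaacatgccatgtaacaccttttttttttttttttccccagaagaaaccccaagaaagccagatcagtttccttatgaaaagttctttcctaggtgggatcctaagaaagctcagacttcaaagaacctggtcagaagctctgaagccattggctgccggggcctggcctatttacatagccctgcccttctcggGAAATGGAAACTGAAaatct
Ifih1: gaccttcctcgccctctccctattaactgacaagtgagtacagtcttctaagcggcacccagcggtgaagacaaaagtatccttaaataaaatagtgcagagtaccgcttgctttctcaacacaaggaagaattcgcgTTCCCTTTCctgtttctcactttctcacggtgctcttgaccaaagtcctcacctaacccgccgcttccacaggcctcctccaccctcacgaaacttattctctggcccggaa
Oas3: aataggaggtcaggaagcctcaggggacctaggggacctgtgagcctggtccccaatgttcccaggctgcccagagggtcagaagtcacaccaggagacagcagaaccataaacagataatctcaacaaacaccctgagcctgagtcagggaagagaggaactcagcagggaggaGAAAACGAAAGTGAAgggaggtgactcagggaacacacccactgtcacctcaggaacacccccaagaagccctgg
Rsad2: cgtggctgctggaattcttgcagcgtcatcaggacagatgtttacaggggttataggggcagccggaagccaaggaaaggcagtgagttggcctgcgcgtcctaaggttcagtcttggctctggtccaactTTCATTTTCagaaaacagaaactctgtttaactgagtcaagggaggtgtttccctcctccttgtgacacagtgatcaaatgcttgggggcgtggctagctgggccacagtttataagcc
Isg15: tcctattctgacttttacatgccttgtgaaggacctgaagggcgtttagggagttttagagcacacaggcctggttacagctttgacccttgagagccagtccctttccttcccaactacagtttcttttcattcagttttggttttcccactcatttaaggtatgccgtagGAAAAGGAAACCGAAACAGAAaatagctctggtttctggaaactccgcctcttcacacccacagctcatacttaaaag
Bst2: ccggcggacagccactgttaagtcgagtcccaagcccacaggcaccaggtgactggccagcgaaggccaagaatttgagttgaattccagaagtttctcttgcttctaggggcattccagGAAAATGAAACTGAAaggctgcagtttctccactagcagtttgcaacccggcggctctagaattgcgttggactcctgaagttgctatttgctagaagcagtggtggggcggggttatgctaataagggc
The start here is that of the RefSeq promoter table. For Oas1a and Oas3 it lies inside the gene span given below, which reaches 19 and 25 bases further upstream and so includes the end of the window; in the other 4 the window ends where the span begins. In Oas1a 2 overlapping cores ended 5 bases before the start, and in Isg15 3 overlapping cores ended 57 bases before it. Oas3 and Bst2 held 2 overlapping cores each, 60 and 115 bases before the start, and Ifih1 and Rsad2 held 1 each on the opposite strand, 103 and 110 bases before it. The kappa-B consensus, the NF-κB binding motif, was found in 4 of the 30 windows (13.3%), those of Bst2, Ifngr2, Irf2 and Oasl1. It was found in 4.46% of all windows and 5.45% of those of tested genes. By call, it was in 1 of 9 windows of genes that fell, 1 of 2 that rose and 2 of 19 that did not pass. A match describes the letters of the window and is neither a site shown to be bound nor a cause.

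Among the 4 receptor chains, which bind interferons at the cell surface, 1 fell and 1 rose. Ifnar2, the high-affinity chain of the type I interferon receptor (Entrez 15976, chr16:91372783-91405589, plus strand), had 630 and 655 counts in WT against 481 and 495 in P65KO. Both P65KO values were below both WT values. On the CPM scale this was 139 ± 2.98 in WT and 108 ± 2.50 in P65KO (mean ± SD, n = 2 each), 1.29-fold lower (log2 -0.36, SE 0.09, adjusted p = 0.0143). Ifnar1, its partner chain, had 747 and 731 counts in WT against 766 and 822 in P65KO, a log2 difference of 0.14 that did not pass (95% interval -0.06 to 0.34). Ifngr2, the signal-transducing chain of the interferon-γ receptor (Entrez 15980, chr16:91547059-91564007, plus strand), had 173 and 177 counts in WT against 262 and 225 in P65KO. The groups did not overlap, and the level rose 1.42-fold, from 37.8 ± 0.382 to 53.8 ± 5.63 CPM (SD, n = 2; log2 0.51, SE 0.12, adjusted p = 0.0119). Ifngr1, the ligand-binding chain, had 1089 and 1123 counts in WT against 1193 and 948 in P65KO, so the P65KO values lay on either side of WT (log2 -0.02, interval -0.25 to 0.22).

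The 2 chains of each receptor were then set against each other within a library, as ratios of CPM per kilobase, a choice made after their values were seen. The Ifnar2 to Ifnar1 ratio was 1.86 and 1.98 in WT and 1.39 and 1.33 in P65KO. The Ifngr2 to Ifngr1 ratio was 0.161 and 0.160 in WT and 0.223 and 0.241 in P65KO. The chain that changed moved each ratio in opposite directions, toward more equal levels of the 2 chains in both receptors, and neither ratio was tested. Per length, Ifngr1 was the highest of the 4 in WT at 114 ± 1.79 CPM per kilobase, followed by Ifnar2 at 43.7 ± 0.938, Ifnar1 at 22.8 ± 0.487 and Ifngr2 at 18.3 ± 0.185. In P65KO the last 2 were at 25.0 ± 1.32 and 26.0 ± 2.72, a difference within their spread. The Ifnar2 row shares 13869 bases on the same strand with the read-through gene model Gm21970, and its call was lost with DESeq2 (adjusted p = 0.0837), with no filter (adjusted p = 0.0624) and without any 1 of the 4 libraries. The Ifngr2 call was also lost with DESeq2 (adjusted p = 0.111), with no filter (0.0815) and without either WT library or P65KO replicate 1.

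**Figure D2:**
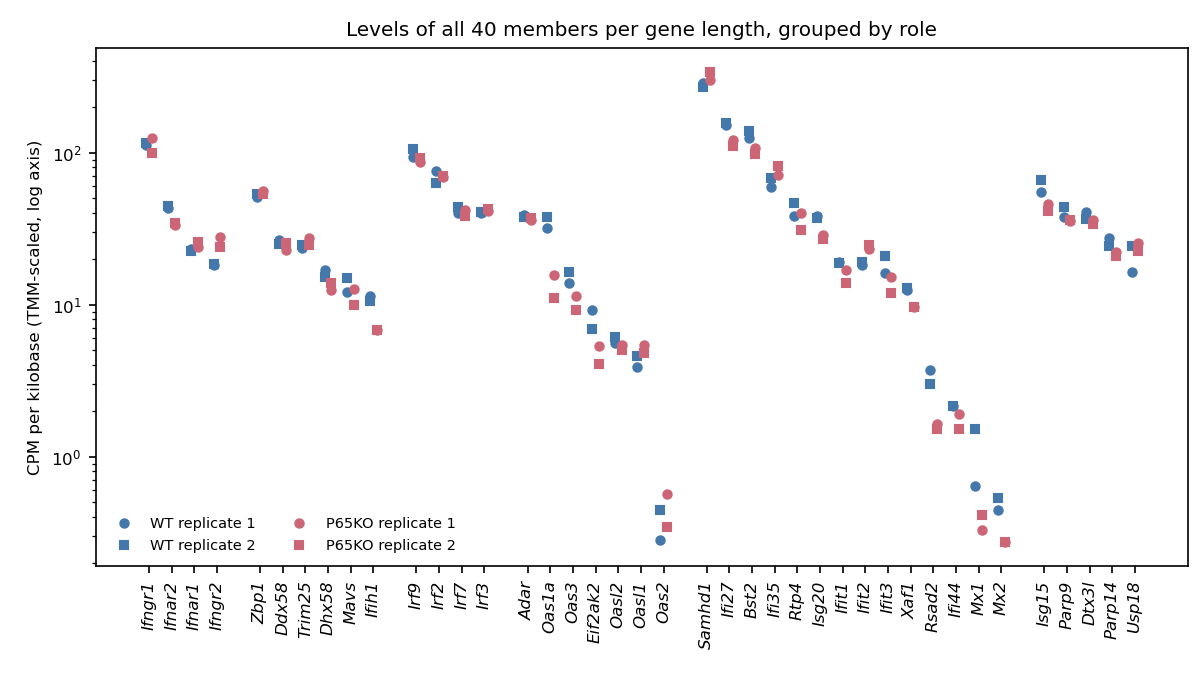
CPM per kilobase of gene length (y axis, log scale) of all 40 genes (x axis, ordered by WT level within each role); each point is 1 library, blue for WT and red for P65KO. Samhd1 was the most abundant at 279 in WT and 320 in P65KO, and Oas2, Mx1 and Mx2 lay near the bottom with at most 19 counts in any library.

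Of the 6 sensors and adaptors, Ifih1 fell and 5 did not pass. Ifih1 encodes MDA5, the helicase that senses long double-stranded RNA (Entrez 71586, chr2:62595618-62646255, minus strand). It had 291 and 269 counts in WT against 171 and 169 in P65KO. All P65KO values lay below WT and close together: 60.5 ± 3.73 CPM in WT and 37.6 ± 0.204 CPM in P65KO (SD, n = 2), 1.61-fold lower (log2 -0.69, SE 0.12, adjusted p = 0.00115). The call was kept under 10 of 11 alternative settings and reached an adjusted p of 0.0502 without WT replicate 1.

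Ddx58, which encodes RIG-I, the sensor of short RNA with a 5′ triphosphate, had 603 and 572 counts in WT against 510 and 566 in P65KO. These values lay close together, with a log2 difference of -0.09 (interval -0.31 to 0.12). The Ifih1 to Ddx58 ratio per length, chosen after the values were seen, was 0.432 and 0.421 in WT and 0.30 and 0.267 in P65KO. Dhx58 (LGP2, a helicase that modulates both sensors) had 188 and 170 counts in WT against 136 and 151 in P65KO, with an interval of -0.59 to 0.01. Mavs, the mitochondrial adaptor of both sensors, had 179 and 223 counts in WT against 182 and 143 in P65KO; the groups overlapped. Trim25, a ubiquitin ligase that acts on RIG-I signalling, had 608 and 641 counts in WT against 692 and 616 in P65KO. Zbp1, a sensor of Z-form nucleic acid, had 512 and 536 counts in WT against 552 and 524 in P65KO. The groups overlapped in Trim25; in Zbp1 both P65KO values were slightly above WT on the CPM scale (111 and 115 against 122 and 116). Neither passed, with log2 differences of 0.10 and 0.07.

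None of the 4 interferon regulatory factors passed. By edgeR 0 of 4 had an unadjusted p below 0.05, and DESeq2 called 0 of 4. Irf9, the DNA-binding part of the interferon-activated complex, had 1153 and 1327 counts in WT against 1062 and 1121 in P65KO, a log2 difference of -0.15 (interval -0.36 to 0.06). Irf7, the interferon-induced amplifier of interferon transcription, had 342 and 381 counts in WT against 356 and 320 in P65KO. Irf3, the constitutive factor activated by the sensors, had 403 and 416 counts in WT against 413 and 424 in P65KO. Irf2, which can repress interferon-stimulated promoters, had 862 and 725 counts in WT against 777 and 789 in P65KO. The 95% intervals of Irf7, Irf3 and Irf2 were -0.30 to 0.17, -0.15 to 0.28 and -0.21 to 0.24 on the log2 scale, and those of all 4 lay within a 1.5-fold difference either way. The Irf3 row overlaps Bcl2l12 on the opposite strand over 1065 bases, and no source used here says whether reads were assigned by strand.

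The double-stranded RNA effectors held the largest difference. Of their 7 genes 6 were tested; Oas1a, Eif2ak2 and Oas3 fell and Adar, Oasl1 and Oasl2 did not pass. Oas1a encodes a 2′-5′-oligoadenylate synthetase, which on binding double-stranded RNA makes the messenger that activates RNase L (Entrez 246730, chr5:120896256-120907544, minus strand). It had 277 and 332 counts in WT against 135 and 94 in P65KO. Every P65KO value was below every WT value, and the level fell 2.60-fold, from 65.8 ± 8.01 to 25.3 ± 6.33 CPM (SD, n = 2; log2 -1.38, SE 0.16, interval -1.73 to -1.02, adjusted p = 7.45e-05). Oas1a was the only gene of the 12 whose call was kept under all 11 alternative settings, with log2 differences from -1.65 to -1.14 and adjusted p up to 0.0356.

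Oas3, a larger synthetase of the same family (Entrez 246727, chr5:120753098-120777684, minus strand), had 301 and 358 counts in WT against 245 and 197 in P65KO. Both P65KO values were lower, and the level fell 1.46-fold, from 71.2 ± 8.28 to 48.8 ± 7.36 CPM (log2 -0.54, SE 0.13, adjusted p = 0.0109). Eif2ak2 encodes PKR, the kinase that halts translation on binding double-stranded RNA (Entrez 19106, chr17:78850504-78882572, minus strand). It had 184 and 140 counts in WT against 105 and 80 in P65KO, without overlap, and fell 1.71-fold (log2 -0.78, SE 0.19, adjusted p = 0.0102). The row shares 1165 bases with the same-strand pseudogene Gm6548. The calls of Oas3 and Eif2ak2 were lost with DESeq2 (adjusted p = 0.0617 and 0.0572), with no filter (0.124 and 0.126) and without either WT library or P65KO replicate 2.

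Adar, the enzyme that edits adenosine to inosine in double-stranded RNA, had 1074 and 1057 counts in WT against 984 and 1016 in P65KO, a log2 difference of -0.06 (interval -0.25 to 0.13). The Oas-like genes Oasl1 and Oasl2 had at most 52 and 89 counts, with log2 differences of 0.27 (interval -0.27 to 0.81) and -0.17 (interval -0.56 to 0.23). Oas2 had 5 and 8 counts in WT against 10 and 6 in P65KO and was below the filter. Reads of similar stretches could be shared between Oas1a and other Oas1 genes, whose sequences were not compared here. Oas1c had 73 and 61 counts in WT against 80 and 79 in P65KO, Oas1b 35 and 20 against 19 and 23, and Oas1g 8 and 14 against 8 and 3; of these, neither Oas1b nor Oas1c passed and Oas1g was not tested. The Oas1a to Oas3 ratio per length, chosen after the values were seen, was 2.30 and 2.32 in WT and 1.38 and 1.19 in P65KO.

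**Figure D3:**
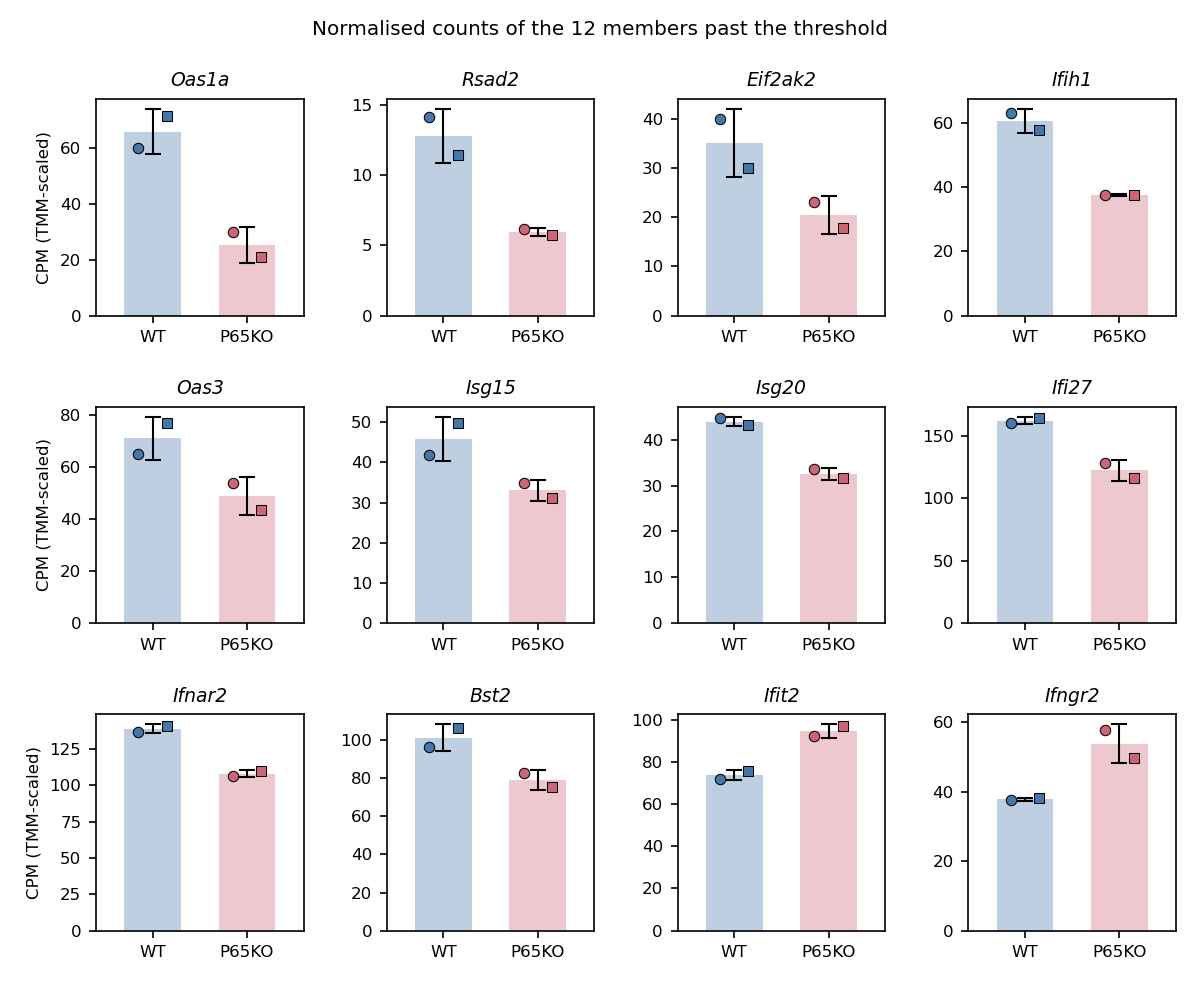
TMM-scaled CPM (y axis, from 0) of the 12 genes past the threshold in each library of WT and P65KO (x axis); points are libraries and the bar is the mean of each group. In all 12 the points of the groups do not overlap, as in 60.5% of all genes tested.

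Among the RNA-binding and other antiviral effectors, 12 of 14 were tested: Rsad2, Isg20, Ifi27 and Bst2 fell, Ifit2 rose and 7 did not pass. Rsad2, or viperin, makes a chain-terminating nucleotide that stops viral RNA synthesis (Entrez 58185, chr12:26442743-26456452, minus strand). It had 65 and 53 counts in WT against 28 and 26 in P65KO. The P65KO values lay below WT, and the level fell 2.13-fold, from 12.8 ± 1.91 to 5.97 ± 0.295 CPM (log2 -1.09, SE 0.27, adjusted p = 0.0115). This was the least abundant of the 12 genes, and its call was lost with DESeq2 (adjusted p = 0.111), with no filter (0.0623) and without either WT library or P65KO replicate 2.

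Isg20, an exonuclease that degrades single-stranded RNA (Entrez 57444, chr7:78913396-78920396, plus strand), had 206 and 201 counts in WT against 152 and 143 in P65KO, a 1.35-fold fall (log2 -0.43, SE 0.13, adjusted p = 0.0313). Ifi27, an interferon-inducible membrane protein (Entrez 52668, chr12:103434189-103440245, plus strand), had 737 and 763 counts in WT against 581 and 525 in P65KO, a 1.33-fold fall (log2 -0.41, SE 0.09, adjusted p = 0.00893). Bst2 encodes tetherin, which holds budding virus at the cell surface (Entrez 69550, chr8:71534255-71537472, minus strand); it had 444 and 494 counts in WT against 376 and 341 in P65KO, a 1.28-fold fall (log2 -0.36, SE 0.10, adjusted p = 0.0307). In all 3 both P65KO libraries lay below both WT libraries. Bst2 also marks plasmacytoid dendritic cells. Of the other markers of these cells given above, Ccr9 and Runx2 fell, Bcl11a rose and Siglech had at most 1 count in any library. The part of these cells in the Bst2 difference was not tested. The calls of Isg20 and Bst2 were lost with DESeq2 (adjusted p = 0.288 and 0.182), with no filter and without any 1 library, and that of Ifi27 with no filter (adjusted p = 0.0645) and without either WT library or P65KO replicate 2.

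The IFIT genes, whose proteins bind viral RNA and lie next to each other on chromosome 19, had log2 differences of opposite sign. Ifit2 (Entrez 15958, chr19:34550550-34576534, plus strand) had 332 and 351 counts in WT against 418 and 437 in P65KO. Both P65KO values were above WT, and the level rose 1.28-fold, from 73.8 ± 2.46 to 94.5 ± 3.24 CPM (log2 0.36, SE 0.10, adjusted p = 0.0241). Ifit3 had 149 and 194 counts in WT against 137 and 108 in P65KO, and Ifit1 had 231 and 230 counts in WT against 202 and 165 in P65KO. Their log2 differences of -0.45 (interval -0.82 to -0.08) and -0.30 (interval -0.58 to -0.01) were below 0 but did not pass (adjusted p = 0.0808 and 0.132). Per length, Ifit2 to Ifit1 was 0.960 and 1.02 in WT and 1.38 and 1.77 in P65KO, and Ifit2 to Ifit3 was 1.13 and 0.915 in WT and 1.54 and 2.05 in P65KO; these ratios were chosen after the values were seen and were not tested. Ifit3b, a near-identical copy of Ifit3, had 35 and 43 counts in WT against 59 and 21 in P65KO. The Ifit2 call was lost with DESeq2 (adjusted p = 0.161), with no filter (0.0826) and without any 1 library.

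Samhd1, the dNTP-degrading enzyme that limits retroviral reverse transcription, was the most abundant gene of the list with 5298 and 5073 counts in WT against 5468 and 6159 in P65KO. It was higher in both P65KO libraries without passing (log2 0.20, interval -0.01 to 0.40, adjusted p = 0.172). Ifi35 had 372 and 433 counts in WT against 438 and 505 in P65KO (log2 0.26, adjusted p = 0.129). Xaf1, an antagonist of the caspase inhibitor XIAP, had 150 and 155 counts in WT against 114 and 114 in P65KO (log2 -0.39, adjusted p = 0.0744). Xaf1 was near the threshold, and passed with library totals in place of TMM (adjusted p = 0.0483). Rtp4 and Ifi44 had log2 differences of -0.26 and -0.33, with intervals of -0.56 to 0.05 and -1.04 to 0.38.

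Mx1 and Mx2 belong to the family of dynamin-like antiviral GTPases, but RefSeq classes both loci of the C57BL/6 reference genome as transcribed pseudogenes. Their counts were low. Mx1 had 8 and 19 counts in WT against 4 and 5 in P65KO, and Mx2 had 5 and 6 in WT and 3 and 3 in P65KO. The ratio of summed counts, P65KO to WT, was 0.330 for Mx1 (27 against 9 counts, 95% interval 0.136 to 0.723) and 0.540 for Mx2 (11 against 6 counts, interval 0.164 to 1.59). These intervals cover counting error only. Both genes, like Oas2, were below the filter and have no test.

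Of the 5 genes of the ISG15 system and ADP-ribosylation, Isg15 fell and 4 did not pass. Isg15 encodes the interferon-induced ubiquitin-like protein that is attached to newly made proteins (Entrez 100038882, chr4:156199424-156200818, minus strand). It had 193 and 231 counts in WT against 158 and 141 in P65KO. The groups did not overlap, and the level fell 1.39-fold, from 45.8 ± 5.53 to 33.0 ± 2.56 CPM (log2 -0.47, SE 0.14, adjusted p = 0.0303). The call was lost with DESeq2 (adjusted p = 0.230), with no filter (0.130) and without any 1 library. Usp18, the protease that removes ISG15 and damps IFNAR2 signalling, had 134 and 199 counts in WT against 203 and 181 in P65KO. Its groups overlapped (log2 0.24, interval -0.13 to 0.61).

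Parp14, a mono-ADP-ribosyltransferase, had 919 and 818 counts in WT against 729 and 686 in P65KO (log2 -0.26, adjusted p = 0.0767). Parp9 and Dtx3l, whose proteins form a complex, had 623 and 729 against 572 and 580 counts and 967 and 880 against 841 and 793 counts. In all 3 both P65KO libraries lay below both WT libraries, without passing; Parp9 and Dtx3l had log2 differences of -0.20 and -0.14. These 2 genes are divergent neighbours that overlap by 558 bases on opposite strands, so reads of that stretch may have gone to either. The Parp9 to Dtx3l ratio per length was 0.937 and 1.20 in WT and 0.989 and 1.06 in P65KO.

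Across the list 25 tested genes did not pass. The 95% interval excluded a 1.5-fold difference in either direction for 18 of these 25. Unadjusted p was below 0.05 for Xaf1, Parp14, Ifit3, Ifit1 and Ifi35, the last of them above 0. The CPM ranges of the groups did not overlap for 29 of the 37 tested genes (78.4%), 21 with P65KO below WT and 8 with P65KO above, beside 60.5% of all genes tested. Per library, the median over the tested genes of the log2 CPM, each taken relative to its own mean over the 4 libraries, was 0.05 and 0.15 in WT and -0.03 and -0.14 in P65KO. The pooled SD of these medians within groups was 0.07, so the libraries of a group differed by about as much as the nearest libraries of the 2 groups.

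The 12 calls differed in how far they depended on the processing. All 12 were kept with limma-voom, RLE scaling, library totals, a 10 CPM filter and the replicate number as a block. With DESeq2 3 were kept, Oas1a, Ifih1 and Ifi27, and with no filter on low counts 2 were kept, Oas1a and Ifih1. Leaving out WT replicate 1, WT replicate 2, P65KO replicate 1 or P65KO replicate 2 kept 1, 2, 6 and 3. No call of the 12 changed sign under any of the 11 settings.

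**Figure D4:**
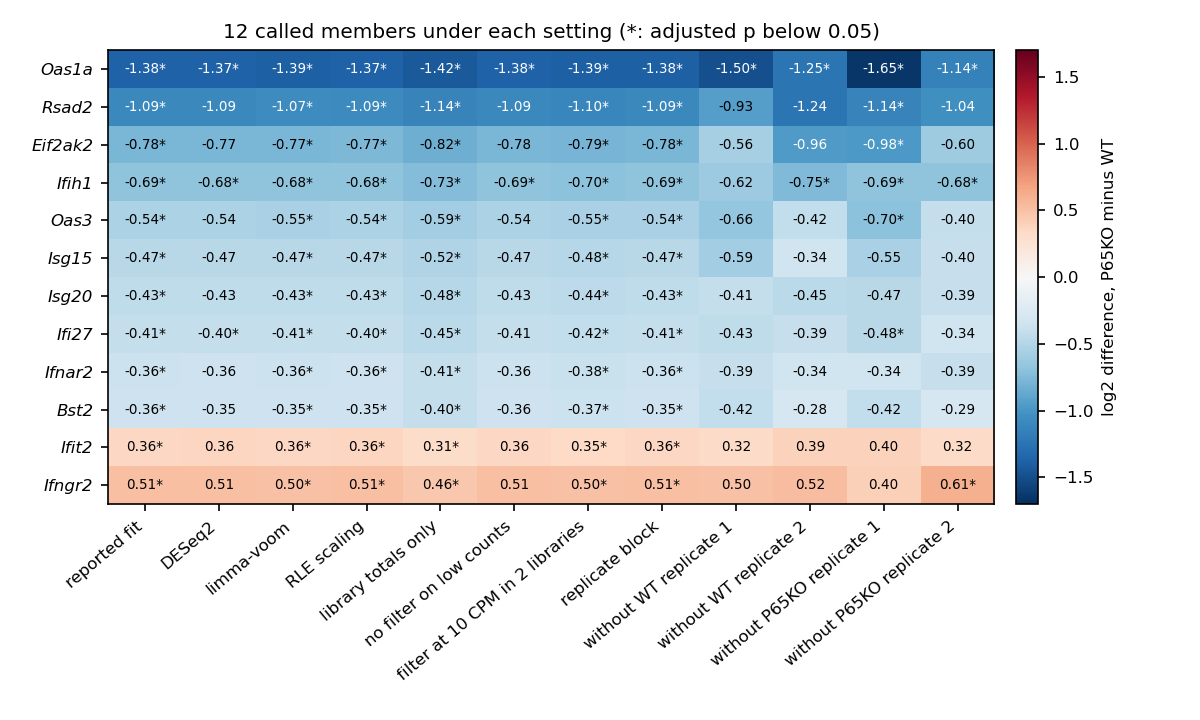
Log2 difference (P65KO minus WT, colour and printed value) of the 12 called genes (rows) in the reported fit and under each of 11 alternative settings (columns); an asterisk marks an adjusted p below 0.05. Oas1a carries an asterisk in every column and Ifih1 in every column but the one without WT replicate 1.

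The other genes of the pathway were taken as 3 further lists, also chosen with earlier results of these data known. Of the signalling and induction genes 44 were tested; 3 rose, 10 fell (29.5% called, beside 20.7% of all genes) and the median log2 difference was -0.04. The largest falls were in Irf4, a lymphocyte-specific interferon regulatory factor family member (510 and 528 against 227 and 177 counts, 2.51-fold, adjusted p = 9.31e-06), the MAP kinase phosphatase Dusp1 (1.95-fold), the phosphatase SHP-2, Ptpn11 (1.54-fold), and the TBK1 adaptor Tank (1.44-fold). Tlr9, Tlr7 and Ptpn6 rose 4.49-fold, 1.55-fold and 1.32-fold. Tlr9 is an endosomal DNA sensor of dendritic and B cells and had 13 and 18 counts in WT against 105 and 32 in P65KO, highest in the library with the most myeloid marker RNA. The part of those cells in it was not tested, and its call was lost without either WT replicate, without P65KO replicate 1 (log2 1.08) and with no filter.

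Some components that act with the receptors and with Irf9 are given outside the naming rule, after their values were seen. Stat2, a subunit of the interferon-activated complex, had 303 and 347 counts in WT against 320 and 319 in P65KO (log2 0.01, adjusted p = 0.969). Of the receptor kinases Tyk2 fell 1.32-fold (adjusted p = 0.0123, kept under 5 of 11 settings) and Jak1 did not pass (log2 -0.02, adjusted p = 0.936). Of the receptor, kinase and complex genes named here, Ifnar2 and Tyk2 passed and fell, while Ifnar1, Jak1, Stat2 and Irf9 did not pass.

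Of the other interferon-stimulated genes 69 of the 87 in the table were tested. Among these 4 rose, 20 fell (34.8% called, beside 20.7% of all genes) and the median log2 difference was -0.17. With DESeq2 4 rose and 10 fell, a share above that of all genes in that fit. With no filter on low counts 0 rose and 4 fell of 83 tested, near the share of all genes. Cxcl10, a chemokine induced by interferons and NF-κB, had 81 and 89 counts in WT against 9 and 6 in P65KO, a 10.9-fold fall (adjusted p = 8.69e-06) kept under all 11 settings. Parp12, Tdrd7 and Ifi27l2a fell 2.06-fold, 1.77-fold and 1.73-fold; each of these 3 calls was lost with no filter and without WT replicate 2 or P65KO replicate 2. The log2 difference of Parp12 was -1.73 without P65KO replicate 1 and -0.58 without P65KO replicate 2, and that of Ifi27l2a was -0.44 without WT replicate 2. The RefSeq span of Ifi27l2a overlaps that of its homologue Ifi27 on chromosome 12. Ifitm3, Ifi30, Ms4a4b and Sp100 rose 4.19-fold, 1.84-fold, 1.32-fold and 1.29-fold. The calls of Ifitm3 and Ifi30 were lost with no filter and without either WT library, and those of Ms4a4b and Sp100 were kept under 7 of 11 settings. Without P65KO replicate 1 the log2 difference of Ifitm3 was 1.17 and that of Ifi30 was 0.51, and without P65KO replicate 2 they were 2.62 and 1.17. Ifitm3, which restricts virus entry and is abundant in myeloid cells, had 24 and 28 counts in WT against 157 and 57 in P65KO, again highest in the library with the most myeloid marker RNA; the part of those cells was not tested.

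Of the other RNA sensing, editing and decay genes 45 were tested; 3 rose, 6 fell (20% called, near the 20.7% of all genes) and the median log2 difference was -0.02. Zcchc3, a co-sensor for RIG-I and MDA5, had 22 and 15 counts in WT against 7 and 2 in P65KO, a 3.94-fold fall (adjusted p = 0.0302); the call was lost with DESeq2, with no filter and without either WT library or P65KO replicate 2. Rnf125, Prkra and Rnf135, 2 ubiquitin ligases of RIG-I and the activator of PKR, fell 1.84-fold, 1.66-fold and 1.61-fold, calls kept under 6, 4 and 5 of 11 settings. Pcbp1, Smurf1 and Dhx15 rose 1.36-fold, 1.28-fold and 1.27-fold, calls kept under 8, 3 and 6 of 11 settings. With DESeq2 this list had 2 higher and 2 lower, and without WT replicate 2 none passed by edgeR (4 higher and 7 lower at an unadjusted p below 0.05).

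Transcripts of the type I interferons themselves were at or near 0 counts. Of 22 genes for interferons and the interferon-λ receptor chain, 19 had 0 counts in every library, which allows up to 3 counts, or 0.646 to 0.664 CPM over the 4 libraries. Ifnz had 0 and 2 counts in WT against 0 and 2 in P65KO, and Ifnlr1 had 1 count in a single WT library. Ifng, the type II interferon made by activated T cells, had 12 and 20 counts in WT against 8 and 3 in P65KO. Its P65KO values lay below WT, and the difference did not pass (log2 -1.49, SE 0.57, adjusted p = 0.0882).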

How the data were processed

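The deposited table holds raw counts per gene for 4 libraries, 2 WT and 2 P65KO. Per the submitters' processing notes the tools were Subread, featureCounts and limma and the build was GRCm38 (mm10); versions and the strand setting were not found in the sources used here, and the kit named in the labels' protocols is TruSeq RNA. The deposited per-library files hold log2 RPKM values made by the authors, which were used here only to recover gene lengths (whole within 0.01 for 27178 genes, from the count plus 0.5). Genes without a symbol took 0.453 to 0.562% of counts.

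Counts of all 27179 genes were filtered (filterByExpr, 11172 left), scaled by TMM and fitted with the edgeR 4.0.16 quasi-likelihood test in R 4.3.3, two-sided, with group as the only term and Benjamini-Hochberg adjustment over all genes tested at a threshold of 0.05. The script was checked on simulated counts. The standard error is the log2 difference divided by the root of F, and intervals are 95%. CPM and CPM per kilobase are TMM-scaled. Alternatives were DESeq2 1.42.0, limma-voom 3.58.1, RLE scaling, library totals, no filter, 10 CPM in 2 libraries, the replicate block and leaving out each library. The text names all 40 genes, and up to 4 called genes per direction of each further list, by largest difference. The members and lists were chosen with earlier results of these data known. Coordinates and windows come from RefSeq GRCm38.p6, overlaps from GENCODE M21; 28 of 36 windows were followed by bases within a GENCODE transcript of the same gene.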

Additional observations from a re-analysis of the deposited data

How the results depend on the processing

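The 12 calls kept their direction under all 11 settings, but the counts of calls did not hold. With DESeq2, 0 of the 37 tested interferon and RNA-sensing genes were higher and 3 lower (3 and 9 at an unadjusted p below 0.05). Of all 11172 genes tested, 587 were higher and 731 lower, a larger share than in the 37. With no filter on low counts, 0 of 40 were higher and 2 lower (2 and 12 unadjusted). Of all 16183 genes then tested, 246 were higher and 525 lower, a share near that of the 40. Leaving out 1 library at a time gave 0 to 1 higher and 1 to 6 lower, 250 to 682 and 493 to 1029 of all genes, and a median log2 difference of -0.23 to -0.11; the lone sample of the reduced group is then assumed to vary like the other group, and such fits rest on fewer samples. For the other changes the cause was not tested. limma-voom, RLE scaling and the 10 CPM filter gave 2 higher and 10 lower. Library totals gave 2 higher and 12 lower, adding Xaf1 and Parp14, and moved the median of all genes to -0.04. The labels share replicate numbers, and deviations of same-numbered libraries from their group means correlated at -0.14, so the numbers do not show pairing; a replicate block gave 2 higher and 11 lower, adding Ifit3, and 996 and 1323 of all genes. The crossed replicate block, added after seeing the data, gave 2 higher and 12 lower, and 1387 and 1586 of all genes. At 4513863 to 4624230 counts a library, the least abundant tested genes, Ifi44, Oasl1 and Rsad2, had the widest intervals, and Mx1, Mx2 and Oas2 were below the filter.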
